A study of Mus musculus with 2 samples.

Results

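The miR-506 family of the mouse X chromosome was examined in small RNA of mature sperm. Its members were taken by name: miR-201, miR-463, miR-465a to miR-465d, miR-470, miR-471, miR-509, miR-547, miR-741, miR-742, miR-743a, miR-743b, miR-871, miR-878, miR-880, miR-881, miR-883a and miR-883b, which make up 20 names. They correspond to 30 of the 1886 miR entries counted, since the 5p and 3p arms of a hairpin are counted apart and 1 entry joins miR-465b-3p, miR-465c-3p and miR-465a-3p. Sperm came from C57BL/6J wild-type mice of 3 months, described as naive, and 2 independent biological replicates of this 1 condition were sequenced. The sperm had swum out of the dissected epididymis and was treated with hypotonic detergent buffer to break other cells. No contrast between conditions exists here, so every comparison below is between miRs or between the 2 libraries, and no p-value is given.

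A miR is cut from a hairpin in its precursor RNA, and its seed, bases 2 to 8 from the 5′ end, pairs with target mRNAs. The miR-506 family is known as a fast-evolving group of X-linked miRs that are expressed mainly in the testis, in male germ cells and in part in Sertoli cells, the somatic nurse cells of the seminiferous tubule. Its genes lie between Slitrk2, which codes for a neuronal membrane protein, and Fmr1, the gene of the fragile X syndrome protein. Some of its miRs are known to be made in spermatocytes at the stage when most X-linked genes are silent.

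The mature sequences of the 14 entries that reached 10 reads over both libraries are shown because all numbers below rest on them. They are from RefSeq (GRCm38.p6), written 5′ to 3′ with the seed in capitals, from the most to the fewest reads over both libraries.
miR-470-5p: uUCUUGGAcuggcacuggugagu
miR-465b-5p: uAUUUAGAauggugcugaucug
miR-465a-5p: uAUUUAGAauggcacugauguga
miR-465b-3p, miR-465c-3p and miR-465a-3p, 1 joined entry: gAUCAGGGccuuucuaaguaga
miR-878-5p: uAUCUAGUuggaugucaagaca
miR-743a-3p: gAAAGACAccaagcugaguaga
miR-471-5p: uACGUAGUauagugcuuuucac
miR-743a-5p: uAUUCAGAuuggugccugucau
miR-463-5p: uACCUAAUuuguuguccaucau
miR-883a-3p: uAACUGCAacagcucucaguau
miR-471-3p: uGAAAGGUgccauacuauguau
miR-547-3p: cUUGGUACaucuuugagugag
miR-470-3p: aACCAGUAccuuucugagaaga
miR-883b-5p: uACUGAGAauggguagcaguca

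Close relatives that had no read in either library are shown for comparison with miR-465a-5p and miR-465b-5p, with miR-743a-5p and with miR-883a-3p, whose seeds they share.
miR-465d-5p: uAUUUAGAaugguacugauguga
miR-871-5p: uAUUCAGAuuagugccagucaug
miR-883b-3p: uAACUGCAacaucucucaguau

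Replicate 1 held 4049599 miR reads and replicate 2 held 5648067. Levels are given as CPM, the reads of an entry per 1000000 miR reads in its library. A level of 3 reads, taken as the smallest that the depth can show, equals 0.741 CPM for replicate 1 and 0.531 CPM for replicate 2. Intervals are 95% intervals that cover counting error only, since the reads carry no molecular identifiers. SDs are over the 2 libraries.

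The family was present in sperm at a low level. In replicate 1 it took 7419 reads, or 0.183% of the miR reads (Wilson interval 0.179% to 0.187%). The 3849 reads of replicate 2 were 0.0682% (0.0660% to 0.0703%). The mean was 0.126% ± 0.0814 (SD, n = 2), and the intervals of the libraries did not overlap. Replicate 1 had 2.69-fold the family level of replicate 2.

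Of the 30 entries, 14 (46.7%) had at least 1 read in each library, beside 378 of all 1886 entries (20.0%), which include the members. With at least 10 reads in each library, 10 member entries passed (33.3%), beside 244 of all entries (12.9%). A further 2 entries, miR-470-3p and miR-883b-5p, were seen in replicate 1 only, each with 11 reads, and miR-883a-5p was seen in replicate 2 only, with 4 reads. No read fell on the other 13 entries in either library. The limit of 3 reads equals 0.741 CPM in replicate 1 and 0.531 CPM in replicate 2. The upper Wilson limits for 0 reads, which bound the levels of these 13 entries, were somewhat higher, 0.949 and 0.680 CPM. By name, 11 of the 20 members had reads in both libraries, counting the joined entry for miR-465a, miR-465b and miR-465c alike. The 8 names without a read on any entry were miR-465d, miR-509, miR-741, miR-742, miR-743b, miR-871, miR-880 and miR-881. For 8 mature miRs of these hairpins in RefSeq, namely miR-465c-5p, miR-741-5p, miR-742-5p, miR-743b-3p, miR-871-3p, miR-878-3p, miR-880-3p and miR-881-3p, no entry was analysed here. The names miR-741, miR-742, miR-743b, miR-871, miR-878, miR-880 and miR-881 were therefore each counted on 1 arm only.

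**Figure D1:**
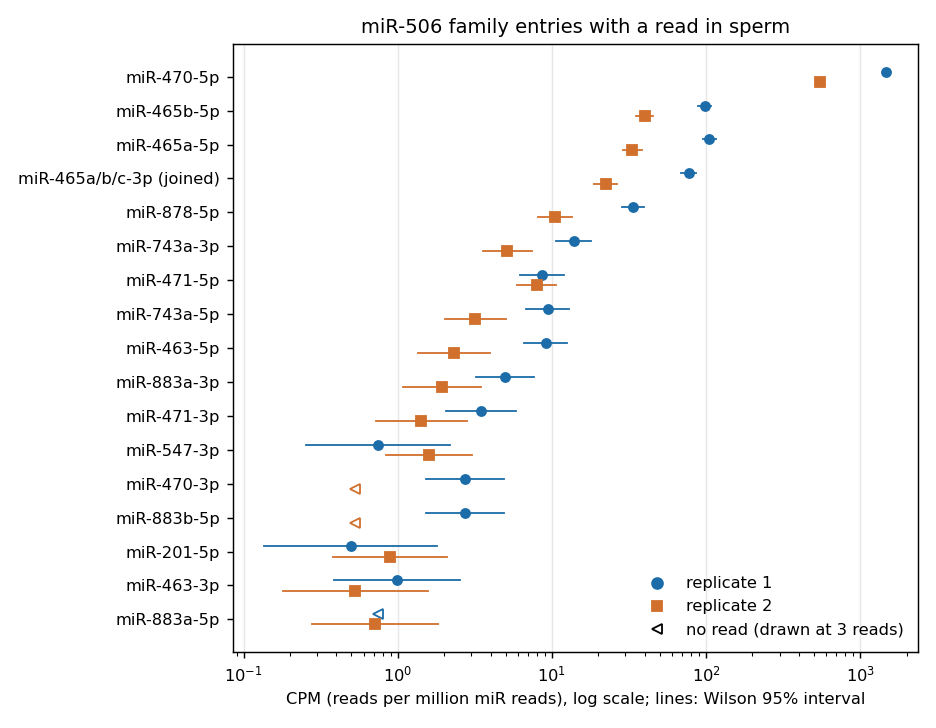
Level of the 17 member entries with a read, in CPM on a log axis, for replicate 1 (circles) and replicate 2 (squares). Lines are Wilson 95% intervals and open triangles mark entries with no read, drawn at the level of 3 reads. miR-470-5p stands far above all others in both libraries, and most entries are lower in replicate 2.

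A single entry carried most of the family. miR-470-5p, known as a miR that targets coding sequences of pluripotency factor mRNAs in differentiating embryonic stem cells, had 5916 reads in replicate 1 (1461 CPM, interval 1424 to 1499) and 3105 reads in replicate 2 (549.7 CPM, interval 531 to 569). Its mean was 1005 ± 644 CPM (SD, n = 2), rank 31 among the 378 entries detected in both libraries. It made up 79.7% of the family reads in replicate 1 (78.8% to 80.6%) and 80.7% in replicate 2 (79.4% to 81.9%). The share within the family was thus close in both libraries, while the level was not. Compared with miR-465b-5p, the entry with the second most reads over both libraries, it had 14.9-fold the reads in replicate 1 and 13.7-fold in replicate 2.

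The miR-465 group came second. miR-465a-5p had 426 and 188 reads in replicates 1 and 2, or 105 and 33.3 CPM. miR-465b-5p had 398 and 226 reads, or 98.3 and 40.0 CPM. The joined 3p entry, whose sequence is the same in miR-465a, miR-465b and miR-465c, had 312 and 126 reads, or 77.0 and 22.3 CPM. These 3 entries lay close to each other and followed at ranks 89, 90 and 102. miR-465a-5p was above miR-465b-5p in replicate 1 and below it in replicate 2, so no order between them can be given. Together with miR-470-5p they held 95.1% of the family reads in replicate 1 and 94.7% in replicate 2.

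The remaining entries were far lower. miR-878-5p had 136 and 59 reads, or 33.6 and 10.5 CPM. miR-743a-3p, reported to act on the mRNA of a mitochondrial malate dehydrogenase, had 56 and 29 reads, or 13.8 and 5.13 CPM. miR-471-5p, studied in Sertoli cells, had 35 and 45 reads, or 8.64 and 7.97 CPM. Its interval overlapped that of miR-743a-3p in both libraries, and it lay above that of miR-743a-5p in replicate 2 only. From miR-743a-5p down to miR-547-3p, neighbouring entries had overlapping intervals in both libraries, so their order is uncertain. miR-743a-5p had 38 and 18 reads, miR-463-5p 37 and 13 reads, miR-883a-3p 20 and 11 reads, and miR-471-3p 14 and 8 reads. miR-547-3p had 3 and 9 reads. Its 5p arm and the 3p arm of miR-201 had none, and miR-201-5p had 2 and 5 reads. The smallest counts, between 0 and 5 reads, also include miR-463-3p with 4 and 3 reads, and they lie at the limit of the depth.

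The 5p arms dominated. Of the family reads, 94.3% came from 5p arms in replicate 1 and 95.2% in replicate 2. The 3p share was 5.66% (5.16% to 6.21%) and 4.83% (4.20% to 5.56%). Most of this imbalance was miR-470, since without miR-470-5p the 3p share was 27.9% and 25.0% of the remaining reads. All these shares lack the arms that had no entry, such as miR-878-3p and miR-465c-5p. By entries the arms were more alike, as 8 of 17 5p entries and 6 of 13 3p entries were detected in both libraries, beside 22.8% of all 5p entries and 23.1% of all 3p entries.

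Arm use differed from hairpin to hairpin, and a hairpin read almost wholly from its 5p arm is shown beside one read from both arms. The RefSeq hairpins are printed 5′ to 3′ with the 5p arm and then the 3p arm in capitals.
Mir470: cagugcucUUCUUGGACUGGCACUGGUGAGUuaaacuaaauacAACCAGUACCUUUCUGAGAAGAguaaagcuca
Mir743: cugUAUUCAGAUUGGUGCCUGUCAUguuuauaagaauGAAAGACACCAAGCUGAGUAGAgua
Of the miR-470 reads, the 3p arm held 0.186% in replicate 1 (11 of 5927 reads, 0.104% to 0.332%) and none of 3105 reads in replicate 2, where the interval reached 0.124%. In miR-743a the 3p arm held the larger part, with 59.6% of 94 reads in replicate 1 (49.5% to 68.9%) and 61.7% of 47 reads in replicate 2 (47.4% to 74.2%), intervals that include equal use. The intervals of miR-470 and miR-743a were far apart in each library. The 3p share of miR-471 was 28.6% (17.9% to 42.4%) and 15.1% (7.85% to 27.1%), and that of miR-463 was 9.76% of 41 reads and 18.8% of 16 reads. For miR-883a all 20 reads of replicate 1 and 11 of 15 reads of replicate 2 were on the 3p arm, whereas the 11 reads of miR-883b in replicate 1 were all on the 5p arm. The miR-465a, miR-465b and miR-465c entries together had a 3p share of 27.5% and 23.3%, a value that lacks the reads of miR-465c-5p.

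The member entries carried 26 different seeds, of which 3 were shared by at least 2 member entries. The largest such group had the seed AUUUAGA, carried by miR-465a-5p, miR-465b-5p and miR-465d-5p, with 824 and 414 reads, or 138 ± 92.1 CPM (SD, n = 2). It came after the seed UCUUGGA of miR-470-5p, which no other mature miR in the RefSeq table carried. The third most abundant was AUCAGGG of the joined miR-465 3p entry. Seed AUUCAGA was shared by miR-743a-5p and miR-871-5p, and AACUGCA by miR-883a-3p and miR-883b-3p, and in each pair only the first had reads. Across all 26 seeds, 1 was also found outside the family, that of miR-743b-5p in miR-6948-5p, and both of these entries had no read.

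Near-identical relatives differed widely in reads. Positions are counted from 1 at the 5′ end, and the base of the miR named first is given first. miR-883a-3p and miR-883b-3p differ by G12U alone over 22 bases, and the first had 20 and 11 reads while the second had none. miR-465a-5p and miR-465d-5p differ by C13U alone over 23 bases, and the first had 426 and 188 reads while the second had none. miR-465a-5p and miR-465b-5p, with like counts, differ by C13U, A14G and G20C. miR-743a-5p and miR-871-5p differ by G11A and U17A, with 38 and 18 reads on the first and none on the second. Where the first mapping step allowed no mismatch, a full-length read fits 1 of each pair.

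In base composition the members stood apart from the average miR entry. A uridine was the first base in 23 of 30 members (76.7%), beside 647 of the 1608 entries with a RefSeq sequence (40.2%). Among 5p entries it was first in 15 of 17 members, beside 40.7% of the 664 with a RefSeq sequence. The median GC content was 40.9% in the members and 52.2% in the 1608 entries, and the median length was 22 bases in both. Among entries detected in both libraries, the median GC content was 36.4% in members and 45.8% in all with a sequence. A first uridine was found in 78.6% and 46.6% of these. Members with reads in both libraries and members without a read began with uridine about equally often, 11 of 14 and 10 of 13.

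All members lie on the minus strand of the X chromosome, in intervals where GENCODE M21 (GRCm38, the build named in the submitters' processing notes) annotates no other overlapping gene. They form 2 groups. The large cluster holds 19 hairpins over 62.4 kb, chrX:66776757-66839125, and its nearest protein-coding gene is Slitrk2, 115 kb away on the low-coordinate side. The small group, Mir201, Mir547 and Mir509, lies 1.15 Mb farther on at chrX:67988096-68010179. Its nearest protein-coding gene is 4933436I01Rik, 66.6 kb away on the low-coordinate side. On the high-coordinate side the next protein-coding gene is Fmr1, 668 kb away. No other miR hairpin of RefSeq lies within 100 kb of a member.

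**Figure D2:**
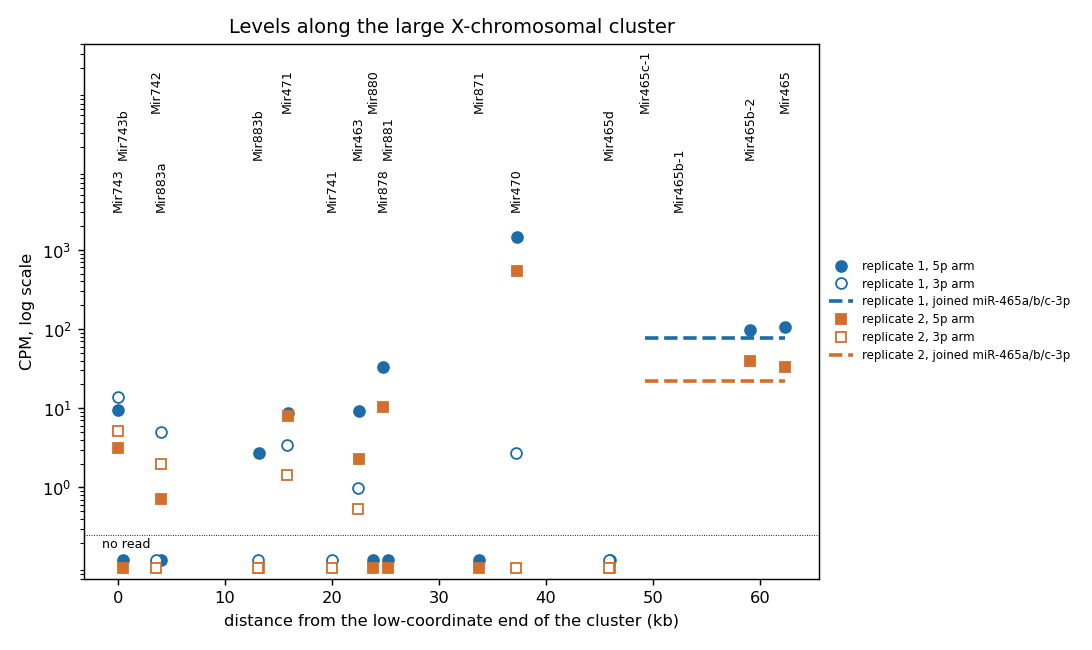
Level of each mature miR of the large cluster that had an entry, in CPM on a log axis. The horizontal axis is the distance in kb from the low-coordinate end of the cluster. Replicate 1 is shown as circles and replicate 2 as squares, with 5p arms filled and 3p arms open. Dashed lines give the level of the joined miR-465 3p entry over the span of its copies, and points under the dotted line had no read. Plotted hairpins without reads lie among those with reads, and all of them but Mir465d were counted on 1 arm only.

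Nearly all reads came from the large cluster, 7414 of 7419 in replicate 1 and 3835 of 3849 in replicate 2, where 12 of 24 entries were detected in both libraries. Within the cluster the counted reads were concentrated in the high-coordinate part, which lies upstream on the minus strand. On the low-coordinate side of Mir470, the hairpins Mir741, Mir742, Mir743b, Mir871, Mir878, Mir880 and Mir881 were counted on 1 arm only. In the high-coordinate part miR-465c-5p had no entry. Reads on these uncounted arms are unknown. Mir470 (chrX:66813951-66814025) and the Mir465 copies between chrX:66825955-66826035 and chrX:66839052-66839125 hold the 4 most abundant entries. Mir465d (chrX:66822656-66822713), placed between Mir470 and the other Mir465 copies, had no read on either arm. Mir878 with 136 and 59 reads sits between Mir880 and Mir881, which had none on their 5p arms. The small group had 5 and 14 reads in all, from miR-547-3p and miR-201-5p, and Mir509 had none.

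The libraries differed in the level of the family in 1 direction for most members. Among the 10 member entries with at least 10 reads in each library, all had a lower CPM in replicate 2, and 9 had a log2 ratio of replicate 2 to replicate 1 under -1. Over all entries with this minimum, 48 of 244 had a ratio under -1 (19.7%). The median log2 ratio, with 0.5 CPM added to each level, was -1.42 in the members and -0.30 in all entries. Where 10 reads over both libraries were enough, 12 of 14 members had a ratio under -1, beside 65 of 323 entries (20.1%), but 2 of these 12 are miR-470-3p and miR-883b-5p, which passed through replicate 1 alone. With 11 reads against none, the exact interval of their log2 ratio ended at -1.81. With nothing added and these 2 entries counted at 3 reads in replicate 2, the median over the 14 members was -1.49. They were the lowest of the 14 either way, so the change from -1.42 came from leaving out the 0.5 CPM.

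**Figure D3:**
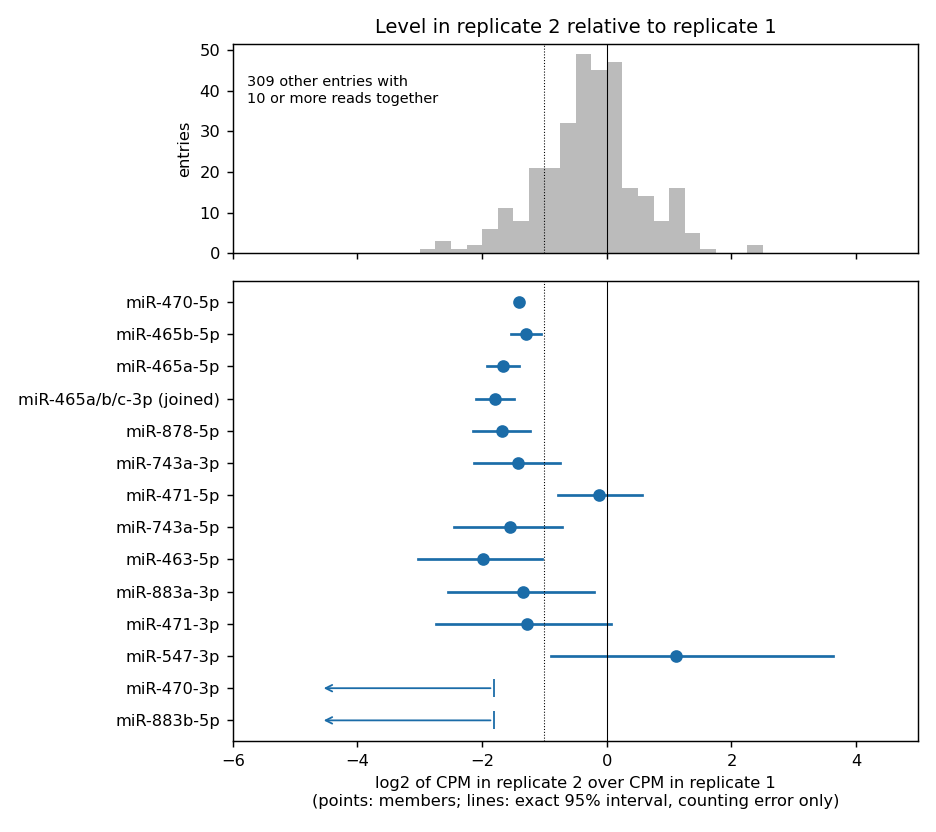
Upper panel: number of non-member entries with 10 or more reads over both libraries, by log2 ratio of replicate 2 to replicate 1 (0.5 CPM added). Lower panel: the same ratio, with nothing added, for 14 member entries with exact 95% intervals that cover counting error only, and arrows from the upper limit where replicate 2 had no read. Most members lie left of the dotted line at -1, while miR-471-5p and miR-547-3p lie to its right.

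The abundant members shared the direction but not the exact size of the ratio. miR-470-5p had a log2 ratio of -1.41 (exact interval -1.47 to -1.35) and miR-465b-5p one of -1.30 (-1.54 to -1.06). It was -1.66 (-1.92 to -1.41) for miR-465a-5p, -1.79 (-2.10 to -1.49) for the joined 3p entry and -1.69 (-2.15 to -1.23) for miR-878-5p. The lowest value among members with 10 reads in each library was that of miR-463-5p, -1.99 (-3.03 to -1.04). All of these intervals lay below -1. Those of miR-470-5p and the joined 3p entry did not overlap. Over the 14 members the make-up of the family differed between the libraries by a chi-square of 3.94 per degree of freedom. That value does not describe the abundant members alone. It includes the low counts of miR-471-5p and miR-547-3p, and miR-470-3p and miR-883b-5p, which passed the minimum through replicate 1 alone.

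miR-471-5p, singled out after its values were seen, had a ratio nearer to 0. Its log2 ratio was -0.12 (-0.79 to 0.56), an interval that does not overlap that of miR-470-5p. Its share of the family reads was 0.472% in replicate 1 (0.339% to 0.655%) and 1.17% in replicate 2 (0.875% to 1.56%). The other arm of the same hairpin, miR-471-3p, had a ratio of -1.29, with a wide interval from -2.75 to 0.07 that overlaps both. In the small group, miR-547-3p had a ratio of 1.11 (-0.90 to 3.63), and the sum of that group one of 1.01 (-0.55 to 2.83) on 19 reads, which includes no difference between the libraries.

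The scaling bears on the size of these ratios. TMM scaling shifted every log2 ratio by 0.35, and the size factors of DESeq2 by 0.34. The ratio of the summed family was -1.43 by miR reads, -1.08 with TMM and -1.08 with DESeq2. With TMM, 7 of the 10 entries stayed under -1, beside 30 of 244 entries, and miR-471-5p turned to 0.23, so 9 of 10 rather than all were lower in replicate 2. Over the 323 entries with 10 reads together, 65.9% were lower in replicate 2 by miR reads and 46.1% with TMM.

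Marker miRs of other cells differed between the libraries too. The germ cell set, the related miR-34b, miR-34c and miR-449 known from meiotic and later male germ cells and from ciliated epithelium, summed to 3898 CPM in replicate 1 and 1640 CPM in replicate 2, a log2 ratio of -1.25 (-0.90 with TMM). Of its 9 entries 5 were detected in both libraries, and 4 of these had a ratio under -1. miR-449a-3p, miR-449b and both arms of miR-449c had no read. The miR-200 family of epithelium, with 9 of 10 entries detected, was higher in level and closer between the libraries, with 10634 and 8548 CPM and a log2 ratio of -0.31 that was 0.04 with TMM. Its miR-429-5p had no read. The smooth muscle and stroma set, 8 of 10 entries detected, had 41332 and 62579 CPM, a log2 ratio of 0.60 (0.95 with TMM). The blood set, 6 of 7 detected, had 183 and 291 CPM, a log2 ratio of 0.67 (1.02 with TMM). By miR reads, all 8 stroma entries with 10 reads together had a ratio above 0. The blood entries were mixed, with 5 above 0 and 1 below, miR-223-3p at -0.67. In the smooth muscle and stroma set miR-143-5p and miR-145b had no read. Of the skeletal and heart muscle set, 10 of 15 entries had no read, and the sum was 22.7 and 23.9 CPM. The part of these other cells in the lower family level of replicate 2 was not tested. In bulk RNA, fewer cells of a type and less RNA per cell cannot be told apart.

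**Figure D4:**
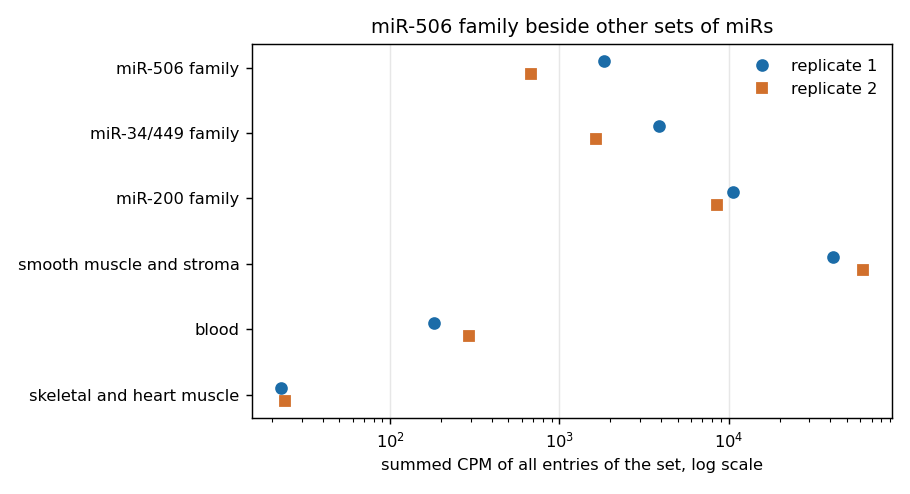
Summed CPM of all entries of each set on a log axis, for replicate 1 (circles) and replicate 2 (squares) and no error bars, the germ cell set being the row named for miR-34 and miR-449. The miR-506 family and the germ cell set are lower in replicate 2, and the smooth muscle and stroma set and the blood set are higher.

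The levels of these sets also place the family. Its mean of 1257 ± 814 CPM (SD, n = 2) lay below that of the germ cell set, 2769 ± 1597 CPM, in each library, although their ranges over the 2 libraries overlapped. It lay below the miR-200 family and the smooth muscle and stroma set without overlap and above the blood set without overlap. Several of these sums rested mainly on 1 entry. Without miR-470-5p the miR-506 family had 251 CPM on average, and the germ cell set without its most abundant entry, miR-34c-5p, had 621 CPM. The miR-200 family had 1870 CPM without miR-141-3p, and the smooth muscle and stroma set had 584 CPM without miR-143-3p. The stroma set without miR-143-3p lay below the whole miR-506 family, but above the family without miR-470-5p. The mean of the family without miR-470-5p, 251 CPM, was close to the 236.5 CPM of the whole blood set. The blood set without its own most abundant entry, miR-142a-5p, had 134.8 CPM. By library the order changed. Without miR-470-5p the family had 1503 reads against 739 of the whole blood set in replicate 1, but 744 against 1641 in replicate 2. The place of the family above the whole blood set in both libraries thus rests on miR-470-5p.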

How the data were processed

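Small RNA of 2 sperm libraries of wild-type mice was sequenced with Illumina's TruSeq chemistry. The labels name a TruSeq kit for RNA, version v2, although the libraries are described as small RNA, and the number of mice behind each library is not given in the sources used here. The labels call the samples naive, while the names of the deposited files carry a tag that may refer to a treatment, and the labels were followed. The authors trimmed low-quality ends, removed adapters with cutadapt 1.8.1, dropped very short reads, and mapped with Bowtie 1.1.2, without mismatches to miR and piRNA sequences first and then to other references. The deposited values are raw read counts per mature miR, not normalized and not pooled. HTSeq, mm10 and GRCm38 are named in the submitters' processing notes, and the miR annotation release is not given in the sources used here. Exact mapping leaves out reads with errors or added bases, which can lower the counts of miRs with modified ends. The 5 summary entries, of which only the reads assigned to no miR were above 0, were left out of the totals, so that 61.9% of the reads listed in replicate 1 and 73.7% in replicate 2 were miR reads.

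Members and lists were chosen with earlier results of these data known. Entries were named where they reached 10 reads over both libraries, with their other arms, and the few further ones were chosen after their values were seen. Python 3.11.15 gave CPM and intervals (scipy 1.17.1, pandas 2.3.3, numpy 2.4.6) and plots (matplotlib 3.10.9). TMM factors came from edgeR 4.0.16 and size factors from DESeq2 1.42.0 (R 4.3.3). The median log2 ratio and the exact intervals of log2 ratios were tested on simulated counts of entries with more reads. Those counts held counting error only, so the test does not cover the wider spread between these libraries. Sequences were matched by name to RefSeq (GRCm38.p6), for all 30 member entries and for 1613 of 1901 names in the tables. Counts of the libraries differed far beyond sampling noise (chi-square per degree of freedom 343, over 323 entries), so both were kept as separate samples.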

Additional observations from a re-analysis of the deposited data

How the results depend on the processing

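No paired analysis was possible because there is only 1 group. Leaving out replicate 1 or replicate 2 gave a family share of 0.0682% to 0.183%, 15 to 16 entries detected, a share of miR-470-5p of 79.7% to 80.7% and a 3p share of 4.83% to 5.66%. With 2 libraries, such values always lie within 1 SD of the mean and show no stability. The mean family share was 0.126% of miR reads and 0.590% when miR-10a-5p and miR-10b-5p were left out of the total, a change of denominator. The number of entries detected was 14, and 13, 10 and 11 with at least 3 reads, 10 reads and 1 CPM in each library. It was 30 with no minimum, and 9 of 18 names when arms and copies were merged. The 3p share was 5.25% on average, 26.5% without miR-470-5p and 1.57% without the joined entry. The log2 ratio of the summed family was -1.43, and -1.08 with TMM, -1.08 with DESeq2, -1.18 relative to all reads listed, -1.26 without miR-10a-5p and miR-10b-5p in the total and -1.49 without miR-470-5p. The median ratio was -1.42 over 14 members, and -1.08 with TMM, -1.09 with DESeq2, -1.36 with 1 CPM added and -1.35 over members with at least 1 read. No alternative turned the direction of either ratio. For the 14 named entries, 41 of 42 mean levels under another total or scaling moved by less than the SD between the libraries. The other was miR-471-5p relative to all reads listed. For most entries this SD was large beside the mean, so a wide move could pass. For miR-470-5p the mean of 1005 CPM (SD 644, n = 2) became 654 per 1000000 reads listed and still passed. miR-471-5p, with close levels in the libraries, had a mean of 8.31 CPM and an SD of only 0.478 (n = 2). The count of 41 thus follows the spread between the libraries and cannot tell how far the levels depend on the total or scaling. The depth limits all entries under 10 reads.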

Other observations

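Other miRs of the X chromosome were compared with the members as a description. By RefSeq position, 106 further entries are X-linked, of which 26 (24.5%) had a read in each library, beside 14 of 30 members (46.7%) and 282 of 1472 autosomal entries (19.2%). The other X-linked entries summed to 628 CPM in replicate 1 and 585.5 CPM in replicate 2, less than the members in each library. That order rests on miR-470-5p. Without it the members had 1503 and 744 reads, fewer than the 2542 and 3307 reads of the other X-linked entries. The log2 ratio of the sums was -0.10, and none of the 20 entries with at least 10 reads together had a ratio under -1, beside 12 of 14 members and 44 of 245 autosomal entries. Of these 12 members, miR-470-3p and miR-883b-5p passed the minimum through replicate 1 alone, and with 10 reads in each library the count was 9 of 10. The median ratio was -0.10 in the other X-linked entries, -0.26 in the autosomal entries and -1.42 in the members. No test was made of these differences, and entries of 1 cluster share a precursor region and are not independent.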
